A study of Homo sapiens with 12 samples.

Results

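GAS5 is a long noncoding RNA gene whose introns carry small nucleolar RNAs, and the 10 of them listed by name, sno-U74 to sno-U81, sno-U44 and sno-U47, are described here across wild-type and 5-LO knockout Mono Mac 6 (MM6) cells with and without LPS. The rule takes the snoRNA entries of these names present in both tables and uses no measured value, and all 10 were found among the 287 snoRNA entries that each table lists. The whole table holds 1231 small noncoding RNAs without LPS and 1139 with LPS. MM6 is a human monocytic cell line. The knockout cells (5-LOΔ) carry a CRISPR/Cas9 disruption of ALOX5, the gene of 5-lipoxygenase, which makes the leukotriene precursors. Every group, wild type included, had been matured with TGF-β at 1 ng/mL together with calcitriol at 50 nM for 72 h according to the labels, or 96 h according to the methods, and the groups with LPS then received 1 µg/mL of it for 6 h. Each of the 4 groups had 3 libraries. The methods name 2 knockout clones, the labels do not say which clone a library came from, and a property of a clone cannot be told apart from the knockout.

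Box C/D snoRNAs are cut out of introns, trimmed by exonucleases and protected by a core of proteins that binds their C and D boxes. In the nucleolus they pair with ribosomal RNA and guide the 2′-O-methylation of single residues. GAS5 (growth arrest specific 5) is transcribed from a promoter of the 5′ terminal oligopyrimidine kind and its spliced RNA is known to accumulate when growth stops, while the snoRNAs of its introns are kept. sno-U44 is known as a guide for the rRNA of the small ribosomal subunit and the others as guides for the large rRNA of the large subunit, and sno-U44 is also in use as a reference RNA for qRT-PCR of miRNAs.

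In GRCh37, GAS5 lies on the reverse strand of chromosome 1 from 173827697 to 173838020. Each member was placed as the window from a C box (TGATG) to a D box (CTGA) within 1 intron of the GAS5 transcript that runs from 173833039 to 173838020 and has 13 exons, and each window is intronic. The 10 windows lie in 10 of the 12 introns, 1 in each, and span 3586 bases. Introns 1 and 10 hold none. Of 91 GAS5 transcripts, this one was taken for its 10 introns with windows that fit the RefSeq order and lengths. Among transcripts that met this, the most exons decided. The 1 window kept in each of 10 introns thus follows from the choice. From the 5′ end the order is sno-U74, sno-U75, sno-U76, sno-U77, sno-U44, sno-U78, sno-U79, sno-U80, sno-U47 and sno-U81. The annotation of this build lists 1 snoRNA gene inside GAS5, SNORD78, from 173834760 to 173834824, and the window of sno-U78 lies within it. For the others the name rests on the order of the genes in RefSeq, whose lengths for the 10 members run from 60 to 81 bases.

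The sequences shown are those on which the comparisons turn: the most abundant member, the pair with the lowest knockout ratios with LPS, the pair whose ratios had opposite signs in the tables, and the pair that shares the longest run of bases. They read 5′ to 3′ on the strand of GAS5, as the GRCh37 reference, with the C box and the D box in capitals.
sno-U44, intron 6, chr1:173835108-173835160: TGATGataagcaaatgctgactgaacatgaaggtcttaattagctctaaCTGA
sno-U78, intron 7, chr1:173834764-173834818: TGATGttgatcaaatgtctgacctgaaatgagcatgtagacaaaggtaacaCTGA
sno-U79, intron 8, chr1:173834493-173834561: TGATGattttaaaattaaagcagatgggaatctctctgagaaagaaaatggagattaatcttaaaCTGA
sno-U47, intron 11, chr1:173833511-173833577: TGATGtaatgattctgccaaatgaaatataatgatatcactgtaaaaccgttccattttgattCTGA
sno-U81, intron 12, chr1:173833291-173833351: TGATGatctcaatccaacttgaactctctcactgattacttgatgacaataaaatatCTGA
sno-U77, intron 5, chr1:173835446-173835500: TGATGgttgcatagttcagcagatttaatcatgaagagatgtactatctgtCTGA
sno-U80, intron 9, chr1:173833973-173834037: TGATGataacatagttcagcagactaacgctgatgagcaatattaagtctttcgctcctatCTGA
sno-U77 and sno-U80 share the run CATAGTTCAGCAGA of 14 bases, the longest run common to any pair, and the other 44 pairs share at most 9 bases in a row. Each whole window occurs once in the reference. A piece of 25 bases from sno-U77, sno-U78 and sno-U81 occurs at 1 further place, so short fragments of these RNAs need not come from GAS5. sno-U76, sno-U79, sno-U47 and sno-U81 are longer in RefSeq than the read of 75 bases.

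The files hold, for each genotype, 1 value per RNA: the authors' mean of the normalized counts of 3 libraries. Values of single libraries and an SD are therefore not given, the p-values of the authors' own comparison were left unused, and no test between genotypes was made, so that whether a difference exceeds the spread between cultures is not shown for any value here. The 95% intervals come from the read counts behind the means and cover counting error only, as reads without molecular identifiers are not independent molecules. The means of a table sum to 10757419 in wild type and 12142907 in knockout without LPS, and to 9680900 and 10165615 with LPS, and snoRNAs hold 59.4% to 64.4% of these sums. Small RNA tables do not hold ALOX5 mRNA, so the genotype could not be checked from these data. The myeloid miRNA miR-223-3p was low in all 4 groups, with means of 58.0 to 93.8, and miR-142-5p stood at 254 to 394. In bulk RNA, fewer cells of a type and less of an RNA per cell cannot be told apart.

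The levels of the 10 RNAs of this 1 host gene spread over more than 2 orders of magnitude. sno-U44 had a mean of 460732 in wild type, 439698 in knockout, 427452 in wild type with LPS and 417676 in knockout with LPS. It was the fourth most abundant snoRNA in each group. sno-U77, a guide for large-subunit rRNA, was the lowest member, with 1424, 1090, 1186 and 1007 in the same order of groups. The highest mean was 323 times the lowest in wild type, 403 times in knockout, 360 times in wild type with LPS and 415 times in knockout with LPS. Per base of RefSeq length these ratios were 371, 463, 413 and 476.

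After sno-U44, the order of the means ran sno-U81, sno-U80, sno-U76, sno-U47, sno-U74, sno-U75, sno-U78, sno-U79 and sno-U77, in all 4 groups. The 9 pairs of neighbours were apart by more than the counting interval in 3 groups, and 8 of 9 were in knockout with LPS, where sno-U76 exceeded sno-U47 1.01-fold. The order was not as fixed per base: sno-U75 passed sno-U74 in knockout without LPS, at 251 against 225 normalized counts per base, and sno-U47 passed sno-U76 in knockout with LPS, at 440 against 421. How completely each RNA was captured in the libraries is not known, so these orders are of reads and not of molecules in the cell.

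sno-U44, sno-U81 and sno-U80 together made up 85.8% of the GAS5 snoRNA reads in wild type, 88.7% in knockout, 86.7% in wild type with LPS and 86.5% in knockout with LPS. Any sum over the host therefore mostly reflects these 3.

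**Figure D1:**
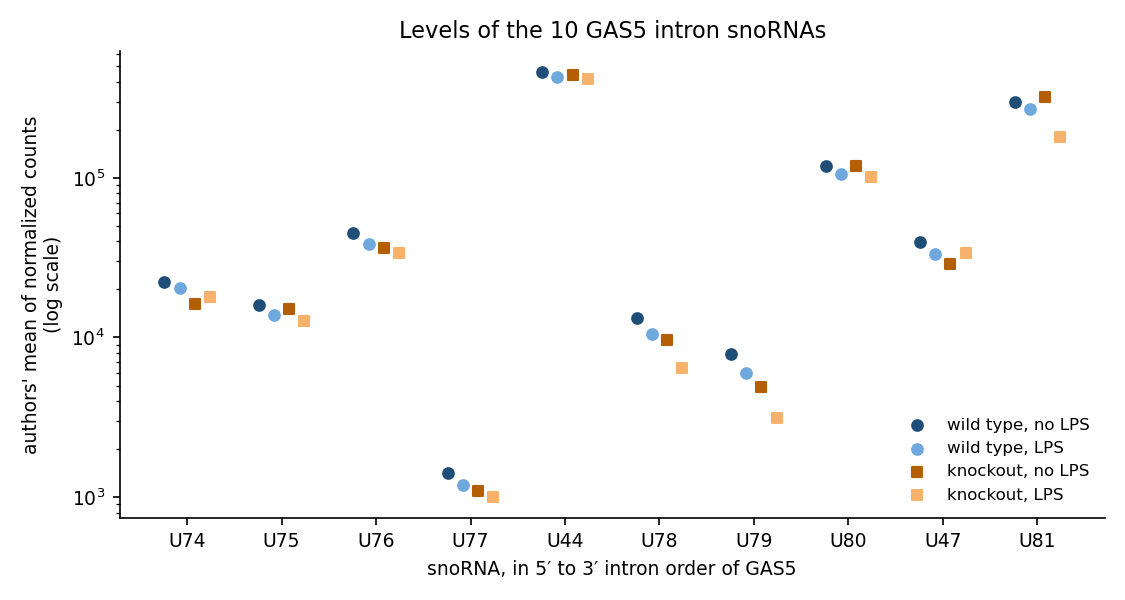
Authors' mean of normalized counts of each GAS5 intron snoRNA on a log axis, in the 5′ to 3′ order of the introns, 1 point for each of the 4 groups (1 mean of 3 libraries, with no error between libraries). sno-U44 lies at 417676 to 460732 and sno-U77, the intron before it, at 1007 to 1424; the tables with and without LPS were normalized separately.

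Without LPS, 9 of the 10 members had a lower mean in knockout than in wild type, by up to 1.59-fold. The largest gap belonged to sno-U79 and the smallest to sno-U80, and sno-U81 was the member with the higher knockout mean, although its log2 ratio turned to -0.06 when both groups were scaled to equal sums of all RNAs, which moved every ratio by -0.17. The median log2 ratio of knockout to wild type was -0.35, with a range of -0.67 to 0.12, against a median of 0.05 over the 282 snoRNAs with both means above 0 and of -0.01 over all 914 such RNAs. A lower mean in knockout was found for 44.0% of those snoRNAs, for 52.8% of the 123 snoRNAs with both means of at least 1000, and for 51.0% of all RNAs.

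sno-U79, a guide for large-subunit rRNA, had a mean of 7846 in wild type and 4927 in knockout, a log2 ratio of -0.67 (95% counting interval -0.70 to -0.64). It was the 1 member past 1.5-fold. That threshold was passed downwards by 9.93% of the 282 snoRNAs, by 8.13% of the 123 abundant ones and by 19.9% of all RNAs. With equal sums of all RNAs, 4 members passed it (sno-U74, sno-U78, sno-U79 and sno-U47), beside 17.4% of the snoRNAs, 19.5% of the abundant ones and 27.6% of all RNAs. sno-U78, the intron before it, stood at 13153 and 9662, a log2 ratio of -0.45 (-0.47 to -0.42). sno-U74, from the member intron nearest the 5′ end, was at 22122 in wild type and 16218 in knockout, also with a log2 ratio of -0.45 (-0.46 to -0.43). sno-U47 had nearly the same ratio, -0.45 (-0.46 to -0.44), from means of 39427 and 28853. These 4 RNAs thus had ratios between 1.36-fold and 1.59-fold below wild type.

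sno-U77 followed at -0.39 (-0.45 to -0.32), from the lowest counts of the list. sno-U76 stood at 44853 in wild type and 36215 in knockout, a log2 ratio of -0.31 (-0.32 to -0.30). For both, the knockout mean was lower by more than counting error. sno-U75, at 16014 and 15067, had a ratio of -0.09 (-0.11 to -0.07).

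The 3 most abundant members had ratios between -0.07 and 0.12. sno-U44 had a log2 ratio of -0.07 (-0.07 to -0.06). sno-U80 had means of 118364 and 118285, and its interval of -0.0077 to 0.0058 holds 0. Under the other scalings its ratio was -0.18 (equal sums of all RNAs), -0.06 (equal snoRNA sums) and -0.04 (median snoRNA at 0), and that of sno-U44 -0.24, -0.13 and -0.11. sno-U81, from the last intron, was the exception in direction, with 297076 in wild type and 322681 in knockout and a log2 ratio of 0.12, or -0.06 after scaling to equal sums.

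The sum over all 10 was 2.77% lower in knockout, whereas the sum of the other 7 members went from 144840 to 112030 and was 22.7% lower. With equal sums of all RNAs these were 13.9% and 31.5%. Over the 10 members, the wild-type mean and the log2 ratio had a Spearman rho of 0.673, given as a description: the wild-type mean enters both values and the libraries are shared. Of the 45 pairs of members, 39 had ratios that differed by more than the counting interval, which at these counts is narrow and holds no spread between libraries. The SD of the 10 log2 ratios was 0.25, against 0.42 over the 113 other abundant snoRNAs.

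**Figure D2:**
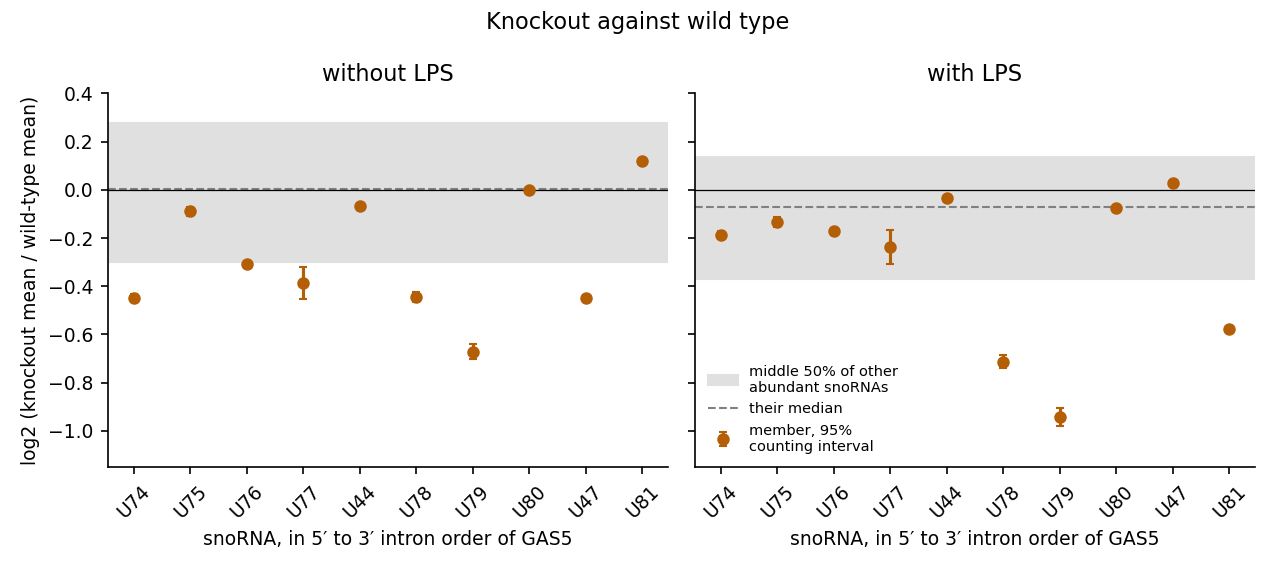
Log2 of knockout over wild type for each member, in intron order, without LPS (left) and with LPS (right); bars are 95% counting intervals, which hold no spread between libraries. sno-U79 is the lowest point in both panels (-0.67 and -0.94), next to sno-U80 at about 0, and sno-U81 lies at 0.12 on the left (-0.06 after scaling to equal sums of all RNAs) and -0.58 on the right.

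With LPS, 9 of 10 members again had the lower mean in knockout, and the spread between members was wider. The median log2 ratio was -0.18, with a range of -0.94 to 0.03, against 0.00 over 285 snoRNAs and -0.03 over all 883 RNAs. A lower mean in knockout was found for 49.8% of these snoRNAs, for 62.4% of the 117 abundant ones and for 51.2% of all RNAs. The SD of the 10 ratios was 0.33, against 0.40 over the 107 other abundant snoRNAs.

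sno-U79 was again the lowest, with 6026 in wild type and 3136 in knockout, a log2 ratio of -0.94 (-0.98 to -0.91). sno-U78 stood at 10545 and 6432, a log2 ratio of -0.71 (-0.74 to -0.69). Both were past 1.5-fold, at 1.92-fold and 1.64-fold below wild type. Downwards past 1.5-fold lay 9.47% of the snoRNAs, 12.0% of the abundant ones and 20.7% of all RNAs. sno-U81 came just short of the threshold at 1.49-fold, with 268926 in wild type and 180045 in knockout and a log2 ratio of -0.58 (-0.58 to -0.57). With equal sums of all RNAs its ratio was -0.65 and 3 members were past 1.5-fold, beside 14.4% of the snoRNAs, 17.1% of the abundant ones and 24.2% of all RNAs.

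The introns on either side of sno-U78 and sno-U79 gave other values. sno-U44, in the intron before sno-U78, had a ratio of -0.03 (-0.04 to -0.03). sno-U80, in the intron after sno-U79, had 106040 in wild type and 100791 in knockout, a ratio of -0.07 (-0.08 to -0.07). sno-U78 and sno-U79, in neighbouring introns, thus had the lowest ratios of the list, and the members next to them on either side lay near 0.

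The 5′ members were between these values. sno-U74 stood at 20310 in wild type and 17848 in knockout, a log2 ratio of -0.19 (-0.20 to -0.17). sno-U77 had a ratio of -0.24 (-0.31 to -0.17), sno-U76 of -0.17 (-0.18 to -0.16) and sno-U75 of -0.13 (-0.15 to -0.11). sno-U47 was the member with the higher knockout mean, 33222 in wild type against 33874, a log2 ratio of 0.03 (0.02 to 0.04), or -0.04 after scaling to equal sums of all RNAs.

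The sum over the 10 was 12.8% lower in knockout with LPS, and that of the 7 less abundant members 11.7% lower, or 16.9% and 15.9% with equal sums of all RNAs. The members made up 14.7% of the snoRNA sum in wild type and 13.8% in knockout without LPS, and 14.9% and 13.2% with LPS. Of the 45 pairs, 42 had ratios apart by more than the counting interval. The wild-type mean and the log2 ratio had a Spearman rho of 0.552 over the 10 members, with the same limits as without LPS.

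The 2 tables share no library, and set side by side they gave the same direction for 8 of the 10 members (80%), all lower in knockout. Of the 106 other snoRNAs with means of at least 1000 in all 4 groups, 45 (42.5%) were lower in both tables. The sign differed between the tables for 2 members (20%) and for 27 of the 106 (25.5%). The others are counted as listed entries, and numbered copies of HBII-52 and HBII-85 are among them. Some copies have equal ratios, such as sno-HBII-85-5 and sno-HBII-85-7, both at 0.19 and -0.05 and so among those that differed in sign. The 106 are thus not all distinct RNAs, which also holds for the snoRNA shares and SDs given above. The ratios themselves did not follow each other closely over the members, with a Spearman rho of 0.248 over 10 RNAs.

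sno-U81 and sno-U47, from the last 2 introns, were the members whose sign differed, which no longer held for either after scaling to equal sums of all RNAs. For sno-U81 the log2 ratio with LPS minus that without was -0.70, and none of the 106 other abundant snoRNAs had a difference as large in either direction, whereas with equal sums of all RNAs it was -0.59 and 2 of the 106 reached that size. For sno-U47 it was 0.48, from -0.45 without LPS to 0.03 with it, and 9 of the 106 others had a difference at least as large in either direction. That count holds for the authors' scaling. With equal sums of all RNAs the difference of sno-U47 was 0.58, close in size to that of sno-U81. Of the remaining members, sno-U78 and sno-U79 each differed by -0.27 and sno-U74 by 0.26. The SD of these differences was 0.33 over the 10 members and 0.26 over the 106 others. These differences between the tables were not tested.

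**Figure D3:**
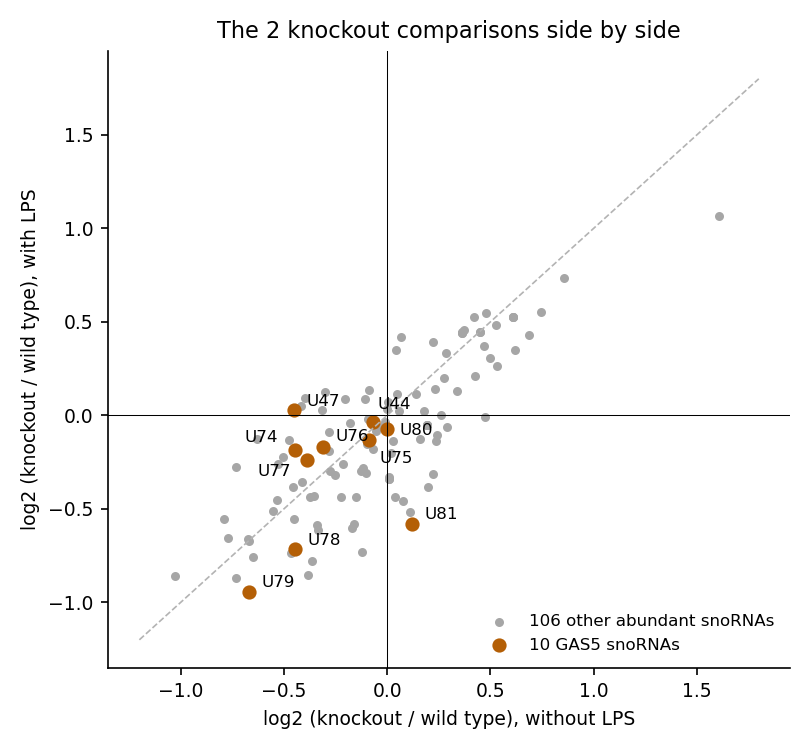
Log2 ratio of knockout to wild type without LPS (x axis) and with LPS (y axis) for the 10 members (named points) and the 106 other snoRNAs with all 4 means of at least 1000 (grey points). 8 members lie in the lower left, where both ratios are below 0. sno-U81 (0.12, -0.58) and sno-U47 (-0.45, 0.03) lie outside it, but inside it after scaling to equal sums of all RNAs, which moves every point, grey ones included, down and to the left.

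For the effect of LPS itself the tables cannot be set against each other by level, so each member was taken as a share of the snoRNA sum of its own group. In wild type the shares with and without LPS were close. The log2 ratio of the share with LPS to that without ran from -0.22 for sno-U79 to 0.05 for sno-U44, with an SD of 0.09 over the members and 0.07 over the 106 others. Those others ran from -0.21 to 0.18, so sno-U79 lay just below the lowest of them. In knockout the same ratio ran from -0.60 for sno-U81 to 0.47 for sno-U47, with an SD of 0.35 over the members and 0.27 over the others. There the others ran from -0.76 to 0.60, a range that holds all members.

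Between these ends in knockout lay sno-U74 at 0.38, sno-U44 at 0.16 and sno-U80 at 0.01, and on the lower side sno-U78 at -0.35 and sno-U79 at -0.41. The share of sno-U81 within the GAS5 sum was 29.1% in wild type, 32.5% in knockout, 29.0% in wild type with LPS and 22.3% in knockout with LPS. That of sno-U44 was 45.1%, 44.3%, 46.2% and 51.7%. The 3 groups other than knockout with LPS thus resembled each other more in these 2 shares. The wider spread in knockout was found for the other snoRNAs too, the clone behind each library is not labelled, and the part of the clone in it was not tested.

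**Figure D4:**
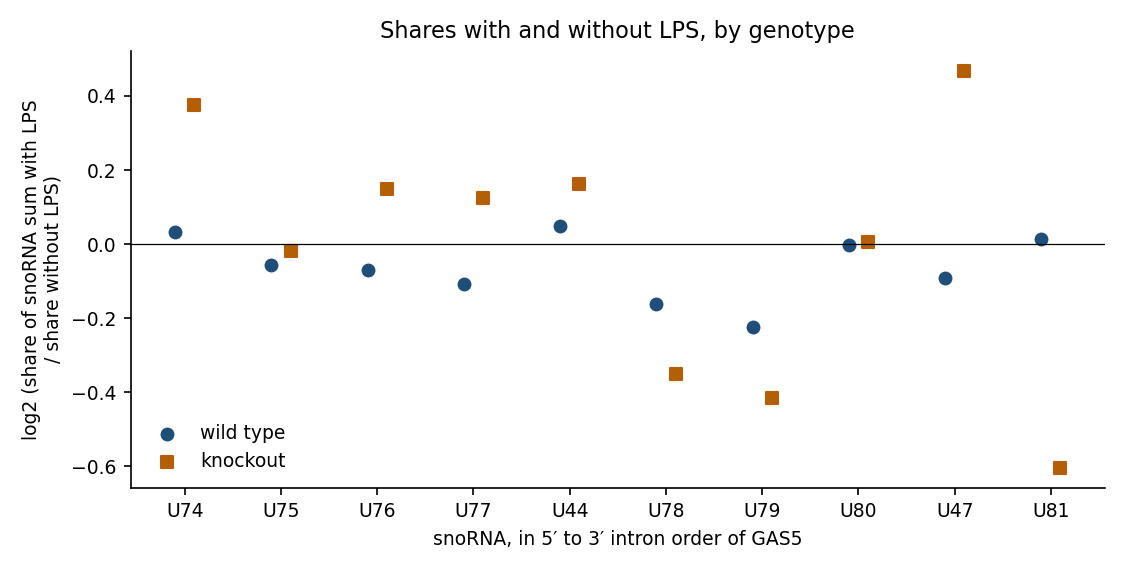
Log2 ratio of each member's share of the snoRNA sum with LPS to its share without LPS, in intron order, for wild type and knockout. The wild-type points lie between -0.22 and 0.05 and the knockout points between -0.60 (sno-U81) and 0.47 (sno-U47).

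The length of the RNA was looked at because 4 members are longer than the read. The 4 longer members had a median log2 ratio of -0.38 without LPS (range -0.67 to 0.12) and of -0.37 with LPS (-0.94 to 0.03). The 6 others had medians of -0.24 (-0.45 to -0.00096) and -0.16 (-0.71 to -0.03). The ranges overlapped in both tables. sno-U77 and sno-U80, which share the 14 bases shown above, had ratios of -0.39 and -0.00096 without LPS and of -0.24 and -0.07 with LPS.

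Other genes that host snoRNAs give a measure of how alike the RNAs of 1 host were. SNHG1, a noncoding host like GAS5, has 8 snoRNAs listed, of which 6 were lower in knockout without LPS and 4 with LPS. Their median log2 ratios were -0.11 (range -0.49 to 0.36) and 0.01 (-0.52 to 0.45). Its lower and higher members were thus more evenly mixed than those of GAS5 at the authors' scaling, and its range of ratios was of like width. Equal sums of all RNAs move these ratios too, by -0.17 and -0.07. That turns sno-U30 (0.11 without LPS) and sno-U29 (0.03 with LPS) below 0, but not sno-U31 (0.36 and 0.45).

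Among hosts that encode proteins, the 3 snoRNAs of RABGGTB, a subunit of the enzyme that puts lipid anchors on Rab proteins, were all higher in knockout in both tables, with medians of 0.50 and 0.34. The 3 of RPL7A, a protein of the large ribosomal subunit, were all lower, with medians of -0.60 and -0.54. The 3 of RPL4, of the same subunit, were also all lower, with -0.28 and -0.19. The 2 of RPL13A had 0.20 and 0.08.

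The 2 of RACK1, a ribosome-bound scaffold protein, lay far apart without LPS, at 1.61 for sno-U95 and -0.21 for sno-U96a, and with LPS stood at 1.07 and 0.09. NCL (nucleolin) is represented by sno-U23 alone, at -0.25 and -0.22. By its median GAS5 was the second lowest of these 8 hosts without LPS, after RPL7A, and the fourth lowest with LPS, and hosts with 1 to 3 listed snoRNAs give little on the spread within a host.

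**Figure D5:**
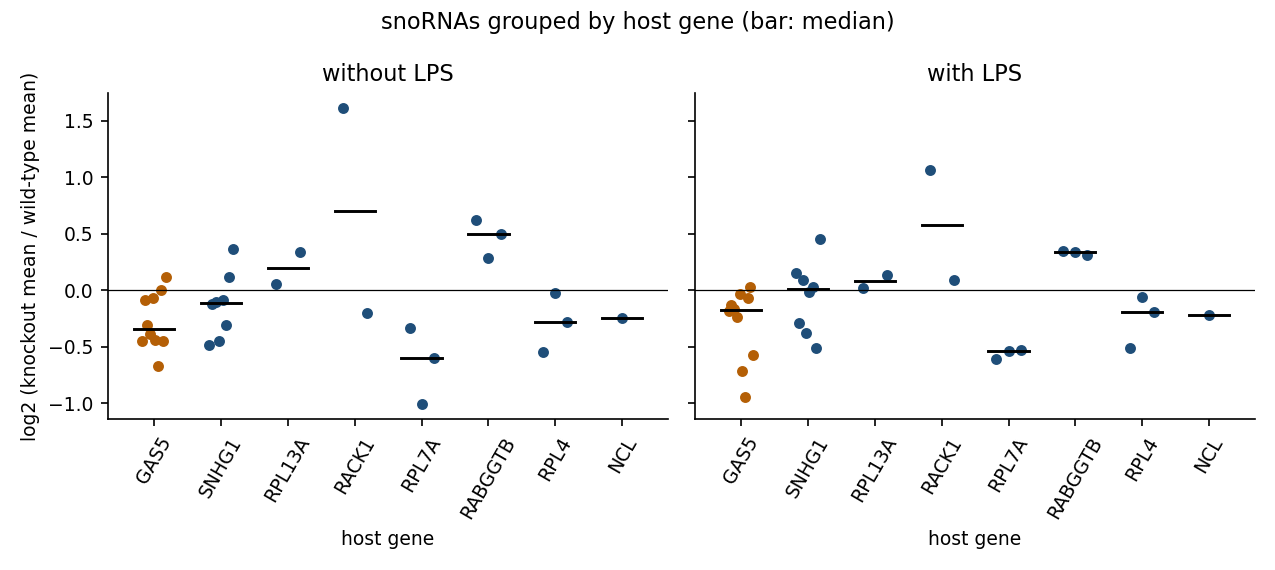
Log2 ratio of the knockout to the wild-type mean of each snoRNA (points), grouped by host gene, without LPS (left) and with LPS (right); the bar is the median of the host. At the authors' scaling GAS5 has medians of -0.35 and -0.18 with points on both sides of 0, and its range overlaps that of SNHG1.

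The snoRNAs of other hosts nearest to the GAS5 medians in both tables, of 225 with means of at least 50 in all groups, were sno-U18C, sno-U66 and sno-U23. sno-U18C, from RPL4, had log2 ratios of -0.28 without LPS and -0.19 with LPS. For sno-U66 they were -0.30 and -0.22. These are likenesses over 2 ratios and say nothing on a shared control.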

How the data were processed

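Small RNA of 12 libraries (4 groups of 3) was sequenced by the authors. Per the labels, total RNA was extracted with TriZol, and libraries were size-selected. The 2 tables were deposited as signal values, the authors' mean of normalized counts per genotype, made with omiRas. The build is hg19 according to the submitters' processing notes, while the aligner, version and scaling were not given in the sources used here. Columns of the deposited log2 ratio, p-value and FDR hold the authors' comparison and were not used. As only means are given, no test was fitted: log2 ratios used no pseudocount, and "past the threshold" is over 1.5-fold. The tables were normalized separately. Size factors were recovered from means up to 10, of which 100% came out as whole reads in 1 way, within 0.6 units of the 6th significant digit plus 1e-06 of the value, and gave Poisson variances and delta-method intervals, tested on simulated data. The factors of the 3 libraries ran from 0.665 to 1.72.

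The members and lists were chosen with earlier results of these data known. All 10 members are named, as are the 3 nearest patterns. The snoRNAs of 7 other hosts are described by host, and only some of them are named. Other entries are named only where a result turns on them. Some snoRNAs of these hosts were not analysed here, and 1 further host is not reported here. Windows were read from GRCh37 with GENCODE annotation, names from RefSeq (GRCh38.p14) gene order. Windows somewhat shorter than the RefSeq gene were kept and, where several remained, that with a purine before the C box. Alternatives were 3 scalings, pseudocounts of 1 and 10, minimum means, and shares over other sums; other fold thresholds were added after seeing the data. Software: matplotlib 3.10.9, scipy 1.17.1, pandas 2.3.3, numpy 2.4.6, Python 3.11.15.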

Additional observations from a re-analysis of the deposited data

Results flagged for a closer look

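The ratios of knockout to wild type of 2 members lay on opposite sides of 0 in the 2 tables, which no longer held after scaling to equal sums of all RNAs. For sno-U81 the log2 ratio of knockout to wild type with LPS minus that without was -0.70, from 0.12 to -0.58. For sno-U47 it was 0.48, from -0.45 to 0.03, a size reached by 9 of the 106 other abundant snoRNAs at the authors' scaling. Each value is a difference of authors' means, so this difference between the conditions was not tested, and its counting intervals (-0.70 to -0.69 and 0.46 to 0.50) hold no spread between libraries. With equal sums of all RNAs the differences were -0.59 for sno-U81 and 0.58 for sno-U47.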

How the results depend on the processing

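Scaling to equal sums of all RNAs moved every log2 ratio by -0.17 without LPS and -0.07 with LPS; equal snoRNA sums moved them by -0.06 and 0.02, and setting the median snoRNA to 0 by -0.04 and 0.02. In that order the median of the members became -0.52, -0.41 and -0.39 without LPS and -0.25, -0.16 and -0.16 with LPS. With equal sums of all RNAs, 0 members were higher in knockout in either table, so the direction of sno-U81 without LPS and of sno-U47 with LPS depends on the scaling. This scaling lowers the ratios of all other RNAs alike, and how many of those were lower in knockout under it was not counted. Past 1.5-fold were then 4 members without LPS and 3 with LPS, beside 27.6% and 24.2% of all RNAs. With a threshold of 1.25-fold, added after seeing the data, 5 members without LPS and 3 with LPS were lower by more than it, beside 21.3% and 24.2% of the snoRNAs, and with 1.4-fold 1 and 3, beside 12.8% and 15.8%. The share of all RNAs was not taken at these 2 thresholds. At 1.5-fold it was 19.9% and 20.7%, above the 9.93% and 9.47% of the snoRNAs. Without the most abundant snoRNA the members held 16.9%, 15.9%, 17.0% and 15.2% of the snoRNA sum in wild type, knockout, wild type with LPS and knockout with LPS, while with nothing left out they held 9.49%, 8.18%, 9.56% and 7.94% of the sum of all RNAs. Pseudocounts and minimum means changed no direction and no count of members past 1.5-fold. No paired analysis was possible because each column is a mean of 3 libraries without replicate numbers. Leaving out single libraries was not run, since reads of single libraries could not be recovered from means as high as these. Counting error was 0.0839% to 1.88% of a mean if reads are taken as independent, and the spread between libraries is not known.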
